A study of Mus musculus with 24 samples.

Results

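The genes described here encode the giant scaffold proteins of the sarcomere and the proteins that anchor them: titin (Ttn), nebulin (Neb), the Z-disc genes Actn2, Actn3, Ldb3 and Tcap, the M-band gene Myom1, the titin-associated ankyrin repeat genes Ankrd1 and Ankrd2, and Klhl41, which binds nebulin. They were chosen by name, as 10 genes of 15439 with reads in C2C12, and all 10 had reads there. None of the 10 had a read in NSC34, where 7557 genes had reads. C2C12 is a mouse myoblast line that fuses into muscle fibres in culture, and NSC34 is a mouse line with features of motor neurons. Both are labelled wild type. Each line was grown together with the other for 3 days (co-culture, n = 6 libraries) or without it (control, n = 6 libraries), and a Nanopore MinION read their total RNA. How the 2 lines were separated afterwards is not in the labels, nor is how long the controls were grown or whether the libraries of a group came from separate cultures, so p-values measure the spread between these libraries, which may be technical. The title of the study is about clustering of acetylcholine receptors, and the comparison asks which transcripts of the muscle line differ once motor-neuron-like cells are present.

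A sarcomere is the contractile unit of striated muscle, bounded by Z-discs and held together at its centre by the M-band. Titin spans from Z-disc to M-band as a molecular spring and assembly ruler, nebulin runs along the thin filament, and alpha-actinin crosslinks actin filaments and titin in the Z-disc. Ankrd1 and Ankrd2 are related proteins that bind titin in the I-band, can enter the nucleus, and are known to respond to mechanical load in muscle. During myogenic differentiation in culture these genes are switched on as myoblasts leave the cell cycle and assemble myofibrils.

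A call as higher with co-culture was made for 1 of the 10 genes, and it held in 5 of 12 refits without 1 library. Ankrd2 reached 261 ± 49.8 CPM (the share of a library's reads, as counts per 1e6, SD, n = 6) in co-cultured C2C12, against 168 ± 25.9 CPM in control C2C12, a log2 fold change of 0.69 ± 0.156 (SE; edgeR quasi-likelihood test, adjusted p = 0.0335). For its relative Ankrd1 the log2 fold change was -0.06 ± 0.104, with an adjusted p of 0.861 in edgeR. Titin, with the most reads of the group, stood at -0.64 ± 0.201 on the log2 scale and did not pass (adjusted p of 0.104 in edgeR). With no filter on low counts titin was called lower (log2 fold change -0.56 ± 0.110, edgeR adjusted p = 2.36e-04) and Ankrd2 higher (0.78 ± 0.161, adjusted p = 6.19e-04). In that fit 0.687% of 15439 genes passed. Of the 10 genes, 7 had enough reads to be tested, of which 1 was called higher and 0 lower at an adjusted p under 0.05. At an unadjusted p under 0.05 in edgeR there were 2, Ankrd2 and titin, against 14.7% of all tested genes. DESeq2 called 1, Ankrd2, and limma-voom with quality weights called 0. Among all 2570 tested C2C12 genes 1.44% were called, 0.817% higher and 0.623% lower. The median log2 fold change of the 7 was 0.06, against 0.0024 over all tested genes. In bulk libraries, fewer cells of a type and less RNA per cell cannot be told apart.

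**Figure D1:**
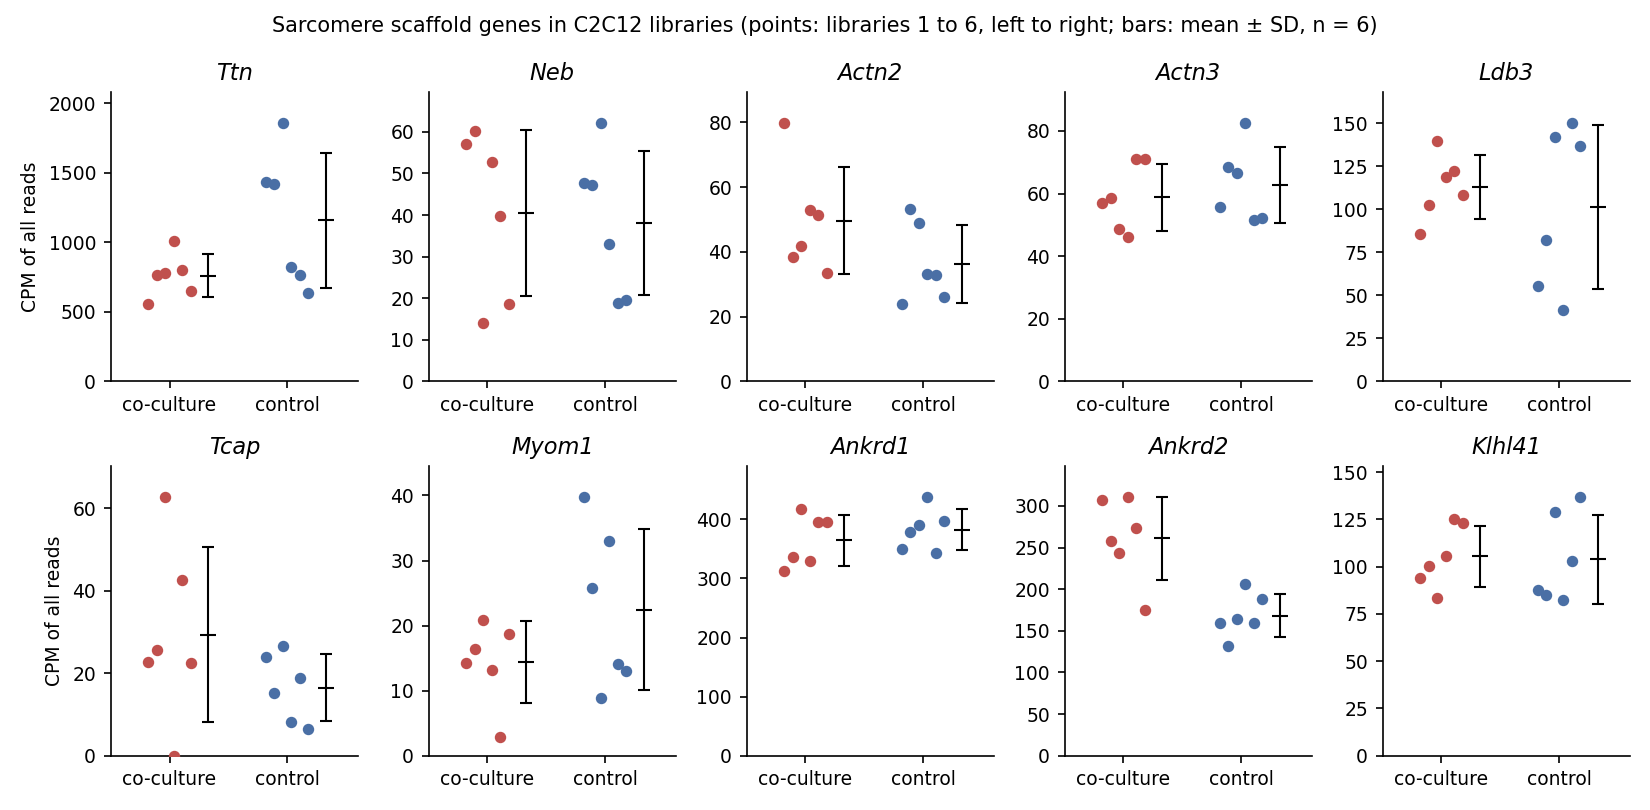
CPM of all reads (y axis, each panel with its own scale from 0) for the 10 genes in 6 co-cultured (red, left) and 6 control (blue, right) C2C12 libraries, with bars for the mean ± SD. Ankrd2 lay between 175 and 310 CPM in co-culture and between 132 and 206 CPM in control; the groups overlapped for every gene shown.

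The C2C12 libraries held between 121154 and 658075 reads, so that 1 read was worth between 1.52 and 8.25 CPM. Muscle markers were abundant: all 13 of a list of 13 had reads, and together they made 14622 to 16355 CPM in co-culture and 10773 to 13994 CPM in control. Of the 12 tested markers 4 were higher with co-culture, Mb, Ckm, Tnnt1 and Myog, and 0 were lower. Neuron markers summed to 175 to 214 CPM in co-culture and 178 to 239 CPM in control, with 9 of 13 detected and the motor neuron genes Chat, Isl1, Mnx1 and Slc18a3 at 0. Fibroblast markers summed to 399 to 475 CPM in co-culture and 299 to 547 CPM in control, with Lum at 0.

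Titin lies on the minus strand of chromosome 2 (GRCm38, 76703980 to 76982547; ENSMUSG00000051747), and 14 of its annotated transcripts had reads. Its level ranged from 555 to 1010 CPM in co-culture with a median of 771, and from 638 to 1859 CPM in control with a median of 1122. Every co-cultured library was below the control median, 1 of them was below the lowest control, and the ranges overlapped over most of the co-culture range. The controls were the uneven group: controls 1, 2 and 3 held 1438, 1419 and 1859 CPM, above every co-cultured library, while controls 4, 5 and 6 held 825, 769 and 638 CPM, among the co-cultured values. The log2 fold change of -0.64 had a 95% interval of -1.06 to -0.22 and an unadjusted p of 0.00459 in the edgeR fit, a p under 0.05 being found for 14.7% of all tested genes (8.83% with a lower level in co-culture). In refits without 1 library the log2 fold change ran from -0.76 to -0.46 and the edgeR adjusted p from 0.030 to 0.321, passing in 2 of 12. The adjusted p was 0.045 without control 5, 0.030 without control 6 and 0.321 without control 3, where the log2 fold change was -0.46. Its adjusted p was 2.36e-04 in the edgeR fit with no filter on low counts, where the log2 fold change was -0.56. The SE was 0.110 in that fit and 0.201 with the filter. With the filter, DESeq2 gave titin an adjusted p of 0.303 and limma-voom 0.192.

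The titin difference was set beside transcript length, and whether length had a part in it was not tested. Titin reads were assigned to transcripts with a mean annotated length of 56.7 kb. Reads on other transcripts of at least 10 kb, members left out, made 0.410 to 0.573% of a co-cultured library. In a control library they made 0.542 to 0.738%. Controls 1 to 3 again held the most, with 0.643, 0.615 and 0.738%, while controls 4, 5 and 6 held 0.542, 0.602 and 0.565%. Control 5 was close to control 2 on this measure, though their titin levels were 769 and 1419 CPM. Across tested genes outside the group the median log2 fold change was 0.07 for 503 genes under 1000 bases, 0.02 for 810 genes of 1000 to 2000, -0.06 for 1005 genes of 2000 to 5000 and -0.12 for 213 genes of 5000 to 10000 bases. It was -0.29 for the 23 genes of 10 kb or more, of which 19 were below 0, and 9 tested genes without an annotated length are in none of these bins. Of 24 tested genes of that length other than titin, nebulin included, 2 had a lower log2 fold change than titin and 0 passed the threshold. With a smooth trend of counts on length removed from each library, the titin log2 fold change was -0.21 ± 0.135 (edgeR adjusted p = 0.518), though at titin's length that trend rests on few genes besides titin.

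**Figure D2:**
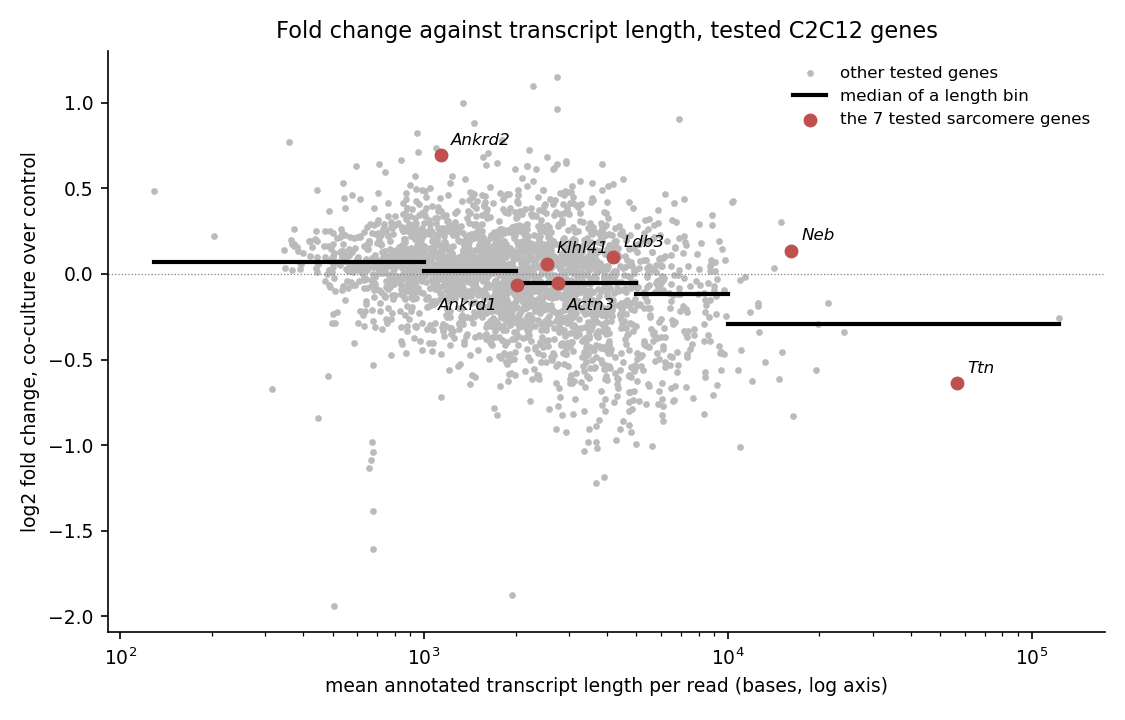
Log2 fold change, co-culture over control (y axis), against the mean annotated transcript length per read in bases (x axis, log scale) for tested C2C12 genes with an annotated length; red points are the 7 tested sarcomere genes and black lines the medians of length bins. The bin medians run from 0.07 under 1000 bases to -0.29 at 10 kb or more, where titin lies at -0.64 and nebulin at 0.14.

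The titin reads were split by where their transcript lies in the gene. Transcripts that reach the 3' end (4 transcripts) took 55.7% of titin reads, transcripts of the 5' part alone (4) took 35.9% and interior ones (6) took 8.42%. The 4 that reach the 3' end also start within 2.37 kb of the 5' end, so their reads need not lie near the 3' end. The classes follow how reads were assigned to transcripts, and the counts do not give where in the gene a read lies. The 5' part stood at 190 to 258 CPM with a median of 235 in co-culture, and at 155 to 932 CPM with a median of 286 in control. Its log2 fold change was -0.93 ± 0.313 (edgeR adjusted p = 0.131). Transcripts reaching the 3' end stood at 268 to 621 CPM with a median of 454 in co-culture, and at 345 to 883 CPM with a median of 665 in control, which is -0.60 ± 0.188 on the log2 scale (adjusted p of 0.107 in edgeR). Both classes overlapped between the groups and neither passed. For the interior class the edgeR value was -0.03 ± 0.425 (adjusted p = 0.994). The share of titin reads on transcripts reaching the 3' end was 59.2 ± 6.57% in co-culture and 60.5 ± 12.7% in control (n = 6 each, exact two-sided permutation test over 924 splits, p = 0.823). This split was chosen after seeing the data.

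The most read titin transcripts were Ttn-205 (101674 bases, 313 exons, 30.3% of titin reads), Ttn-215 (2159 bases, 12 exons, 24.6%) and Ttn-201 (81843 bases, 192 exons, 19.8%). They share sequence: 100% of the bases of Ttn-215 and 96.7% of those of Ttn-201 lie in exons of Ttn-205. Ttn-205 was at 0 in control 6 and Ttn-201 at 0 in control 3, libraries with 98 and 419 titin reads, and how reads in shared exons were assigned is not given in the sources used here. Ttn-215 had 282 reads in co-culture and 512 in control, and its log2 fold change was -0.98 ± 0.334 (adjusted p over transcripts 0.246 in edgeR). Over the members 10 transcripts were tested and 0 passed, against 0.387% of 2586 tested transcripts; 2 had an unadjusted p under 0.05, against 10.9%. DESeq2, which gave no adjusted p for some of them, and limma-voom called 0 too. With no filter on low counts, where 0.334% of 37677 transcripts passed, 2 of the members' transcripts were lower in edgeR. These were Ttn-215 (log2 fold change -0.90, adjusted p = 0.0030) and Ttn-203 (-1.66, adjusted p = 0.0036), which had 54 reads in co-culture and 127 in control and was at 0 in 6 libraries.

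**Figure D3:**
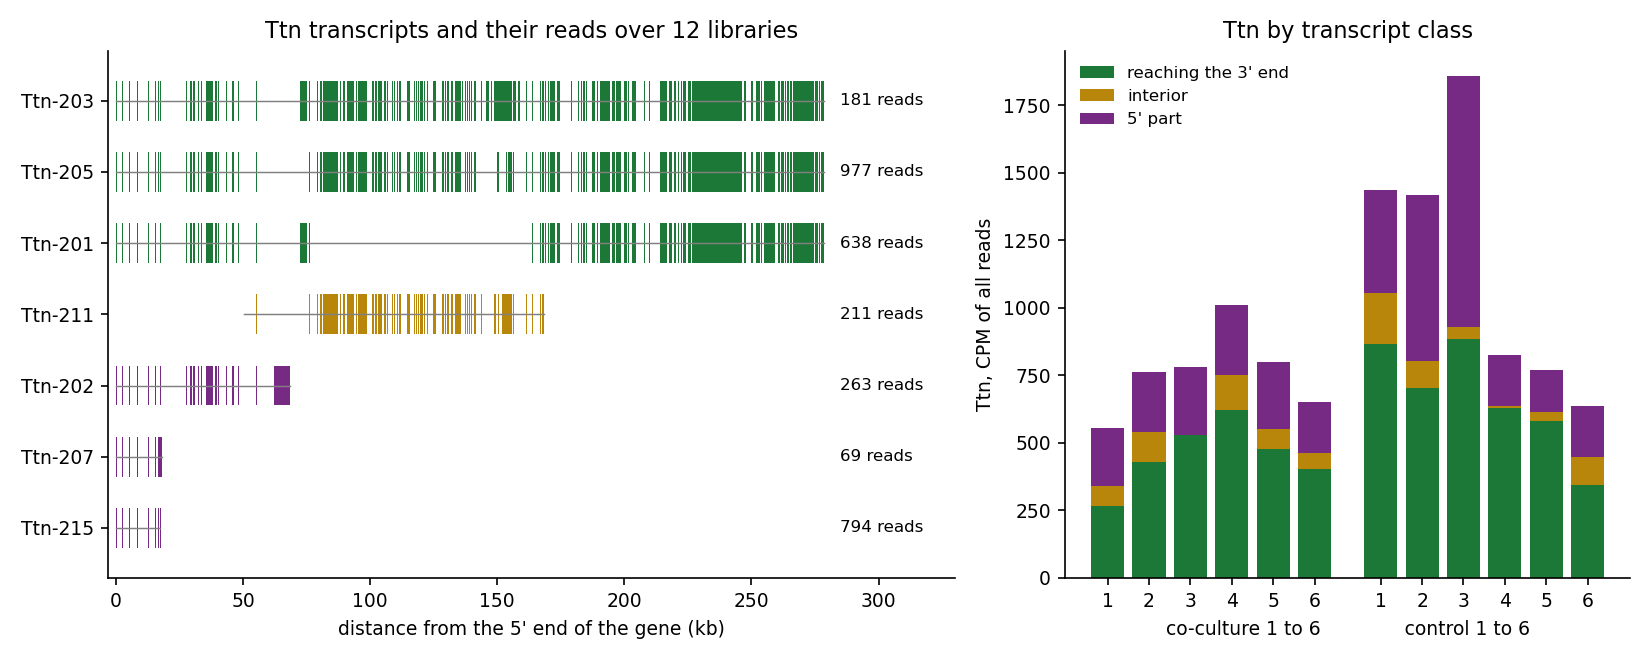
Left, exons of the titin transcripts with most reads by distance from the 5' end of the gene (x axis, kb), with reads summed over the 12 C2C12 libraries; right, titin CPM of all reads per library (y axis from 0), stacked by transcript class, co-culture left of control. Controls 1, 2 and 3 reach 1438, 1419 and 1859 CPM, and control 3 alone has 932 CPM on the 5' part.

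The promoter of titin, as given by RefSeq, is shown beside those of the ankyrin repeat genes because the 3 had different readouts. Each run spans 250 bases before to 50 after the annotated start, on the strand of the gene, in GRCm38.p6, and capitals mark motifs of muscle gene control found on either strand: the E-box (CANNTG), the M-CAT element (CATTCC), the MEF2 site and the CArG box. RefSeq promoters were at hand for 7 of the 10 genes, and Neb, Actn3 and Tcap were without one.
Ankrd2, chr19:42035777-42036076, plus strand: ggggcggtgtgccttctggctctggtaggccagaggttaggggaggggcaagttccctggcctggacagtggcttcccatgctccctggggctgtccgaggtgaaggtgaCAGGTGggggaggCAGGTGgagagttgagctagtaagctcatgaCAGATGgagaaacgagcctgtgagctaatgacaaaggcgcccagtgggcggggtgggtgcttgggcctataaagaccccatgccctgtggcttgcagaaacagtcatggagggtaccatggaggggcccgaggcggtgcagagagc
Ankrd1, chr19:36119795-36120094, minus strand: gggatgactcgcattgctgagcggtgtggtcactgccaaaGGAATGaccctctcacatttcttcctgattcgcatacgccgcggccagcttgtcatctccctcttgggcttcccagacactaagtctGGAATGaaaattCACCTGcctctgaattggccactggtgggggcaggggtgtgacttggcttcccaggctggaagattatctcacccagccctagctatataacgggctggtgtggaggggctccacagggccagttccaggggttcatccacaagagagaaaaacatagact
Ttn, chr2:76982498-76982797, minus strand: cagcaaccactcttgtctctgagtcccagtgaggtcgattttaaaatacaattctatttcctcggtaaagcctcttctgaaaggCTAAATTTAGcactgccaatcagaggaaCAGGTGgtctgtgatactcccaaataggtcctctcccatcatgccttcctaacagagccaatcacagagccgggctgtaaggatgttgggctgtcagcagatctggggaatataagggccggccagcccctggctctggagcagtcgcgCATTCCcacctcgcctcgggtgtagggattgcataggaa
The Ankrd2 window held 3 E-boxes, at -140, -127 and -96 from the start. Its relative Ankrd1 had 1 E-box, at -111, and 2 M-CAT elements, at -210 and -123. The Ankrd1 window lies inside the span of Ankrd1-205 (36111965 to 36120099), which took 99.1% of the gene's reads. These Ankrd1 sites are therefore not upstream of the annotated start of that transcript. In the Ttn window there were 1 E-box at -138, 1 MEF2 site at -166 and 1 M-CAT element at 11. Among windows not printed, those of Klhl41, Actn2 and Myom1 held 4, 3 and 3 E-boxes, and those of Ldb3 held 0. The Klhl41 window also held 1 MEF2 site, and the Myom1 and Ldb3 windows 1 CArG box each. A link between matches and readouts was not tested. An E-box is found in 72.3% of 32851 mouse promoter windows of the same length, an M-CAT element in 14.7%, a MEF2 site in 3.19% and a CArG box in 1.63%. None of the marked matches overlapped another, and a match describes letters, not a bound site.

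Nebulin, the thin filament ruler, lies on the minus strand of chromosome 2 (52136647 to 52378474). It ranged from 13.9 to 60.3 CPM with a median of 46.3 in co-culture, and from 18.8 to 62.1 CPM with a median of 40.1 in control. The groups covered almost the same range. Its log2 fold change was 0.14 ± 0.331 with a 95% interval of -0.55 to 0.83 (edgeR adjusted p = 0.931), an interval that spans changes in both directions, on 82 reads in co-culture and 62 in control. With the length trend removed it was 0.42 ± 0.330 (adjusted p of 0.647 in edgeR). Neb-202, of 22489 bases, took 68.1% of nebulin reads, and Neb-213, of 1825 bases, took 22.2%.

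Alpha-actinin is made by Actn2, the form found in all striated fibres, and Actn3, the form of fast fibres. Actn2 (chromosome 13, 12269426 to 12340760, minus strand) ranged from 33.6 to 79.8 CPM with a median of 46.5 in co-culture, and from 23.8 to 53.2 CPM with a median of 32.9 in control. All 6 co-cultured libraries were above the control median, but the ranges overlapped. With 90 reads in co-culture and 64 in control it was under the filter on low counts, and the edgeR fit with no filter gave a log2 fold change of 0.39 ± 0.284 (adjusted p = 0.611). Actn3 (chromosome 19, 4861216 to 4877909, minus strand) ranged from 46.2 to 71.2 CPM with a median of 57.7 in co-culture, and from 51.6 to 82.5 CPM with a median of 61.1 in control, again overlapping. Its log2 fold change was -0.05 ± 0.193 (edgeR adjusted p = 0.961). The main transcripts of the 2 genes are 76.1% identical over 2644 bases, with identical runs of at most 51 bases, and whether reads of one were counted for the other was not tested. Actn2-201 took 93.5% of Actn2 reads and Actn3-201 took 93.7% of Actn3 reads.

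Ldb3, also called ZASP or Cypher, binds alpha-actinin and keeps the Z-disc intact under tension. The gene (chromosome 14, 34526603 to 34588682, minus strand) ranged from 85.5 to 139 CPM with a median of 114 in co-culture, and from 41.3 to 150 CPM with a median of 109 in control. The control range enclosed the co-culture range, and the log2 fold change was 0.10 ± 0.234 (edgeR adjusted p = 0.930). Ldb3-205 took 64.6% of the reads, Ldb3-207 21.6% and Ldb3-201 12.1%. In co-culture 3 Ldb3-205 was at 0 while Ldb3-201 held 18 reads, and 90.5% of the bases of Ldb3-201 lie in exons of Ldb3-205.

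Tcap, or telethonin, caps the ends of paired titin molecules in the Z-disc and has the shortest transcript of the group, at 948 bases (chromosome 11, 98383811 to 98384953, plus strand). It ranged from 0 to 62.7 CPM with a median of 24.2 in co-culture, and from 6.51 to 26.6 CPM with a median of 17.0 in control. In co-culture, 2 of 6 libraries were above every control, and co-culture 4 had 0 of 151424 reads, which allows up to 19.8 CPM (3 reads; like all such limits, for counting error only). With 52 reads in co-culture and 25 in control the gene was under the filter. The edgeR fit with no filter gave a log2 fold change of 0.86 ± 0.392 with an unadjusted p of 0.0286 and an adjusted p of 0.526, where 0.687% of 15439 genes passed.

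Myom1, or myomesin, crosslinks thick filaments and titin at the M-band (chromosome 17, 71002633 to 71126856, plus strand). It ranged from 2.85 to 20.9 CPM with a median of 15.3 in co-culture, and from 8.88 to 39.7 CPM with a median of 19.95 in control, with overlapping groups and 25 reads in co-culture against 33 in control. Its reads were spread over Myom1-203 (31.0%), Myom1-201 (27.6%), Myom1-202 (15.5%), Myom1-207 (12.1%) and Myom1-208 (10.3%), with at most 18 reads each. The gene was under the filter, and with no filter the edgeR log2 fold change was -0.54 ± 0.436 (adjusted p = 0.611). Its gene overlaps Myl12a, with 6836 reads, on the other strand, and whether reads were counted by strand is not given in the sources used here.

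Ankrd2 (chromosome 19, 42036000 to 42045110, plus strand; ENSMUSG00000025172), whose promoter is printed above, ranged from 175 to 310 CPM with a median of 266 in co-culture, and from 132 to 206 CPM with a median of 162 in control. In co-culture, 5 of 6 libraries were above the highest control, and co-culture 6, at 175 CPM, lay within the control range. The fold was 1.62 with a 95% interval of 1.29 to 2.03, and the log2 fold change was at percentile 99.4 of all tested genes. The size held in every refit without 1 library, between 0.57 and 0.79, while the adjusted p in edgeR ran from 0.00860 to 0.0924 and stayed under the threshold in 5 of 12. It passed without controls 4, 5 or 6 or co-cultures 3 or 6, and did not pass without controls 1, 2 or 3 or co-cultures 1, 2, 4 or 5. Muscle markers that rose beside it included Mb, the oxygen store of muscle, with 1099 ± 72.1 CPM in co-culture and 661 ± 58.8 CPM in control (log2 fold change 0.73 ± 0.0808, edgeR adjusted p = 3.41e-05), and their part in the Ankrd2 difference was not tested. Ankrd2-202 took 89.8% of the gene's reads, 417 in co-culture and 217 in control (log2 fold change 0.58, edgeR adjusted p over transcripts 0.147). Ankrd2-201 took 10.2%, and all of its bases lie in exons of Ankrd2-202.

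Ankrd1, also known as CARP (chromosome 19, 36111961 to 36120099, minus strand), ranged from 313 to 418 CPM with a median of 366 in co-culture, and from 342 to 437 CPM with a median of 384 in control. The ranges overlapped, with 3 of 6 co-cultured libraries below the lowest control and 1 control above every co-cultured library. The 95% interval of the log2 fold change was -0.28 to 0.15, narrower than for any other tested member. A single transcript, Ankrd1-205, took 99.1% of its reads. Ankrd1 and Ankrd2 transcripts are 67.8% identical over 543 bases with identical runs of at most 11 bases. Ankrd1 is also known as a target of YAP and TAZ. Of a list of 20 such targets 18 had reads and 6 were tested, with 0 higher, 0 lower and a median log2 fold change of -0.15. At an unadjusted p under 0.05 in edgeR 2 of the list were lower, against 8.83% of all tested genes. The smallest p in that list was that of Ccdc80, an extracellular matrix protein, at 235 ± 29.5 CPM in co-culture and 324 ± 72.8 CPM in control (log2 fold change -0.46 ± 0.136, edgeR adjusted p = 0.0804), followed by Myof, a membrane repair protein (-0.74, adjusted p = 0.303), and Rbms3, an RNA-binding protein (-0.29, adjusted p = 0.505).

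Klhl41, an adaptor for a ubiquitin ligase that binds and stabilises nebulin (chromosome 2, 69670120 to 69684230, plus strand), ranged from 83.6 to 125 CPM with a median of 103 in co-culture, and from 82.5 to 137 CPM with a median of 95.3 in control. The control range enclosed the co-culture range, and the log2 fold change was 0.06 ± 0.178 with a 95% interval of -0.31 to 0.43 (edgeR adjusted p = 0.948). A single transcript, Klhl41-201, took all 342 reads.

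**Figure D4:**
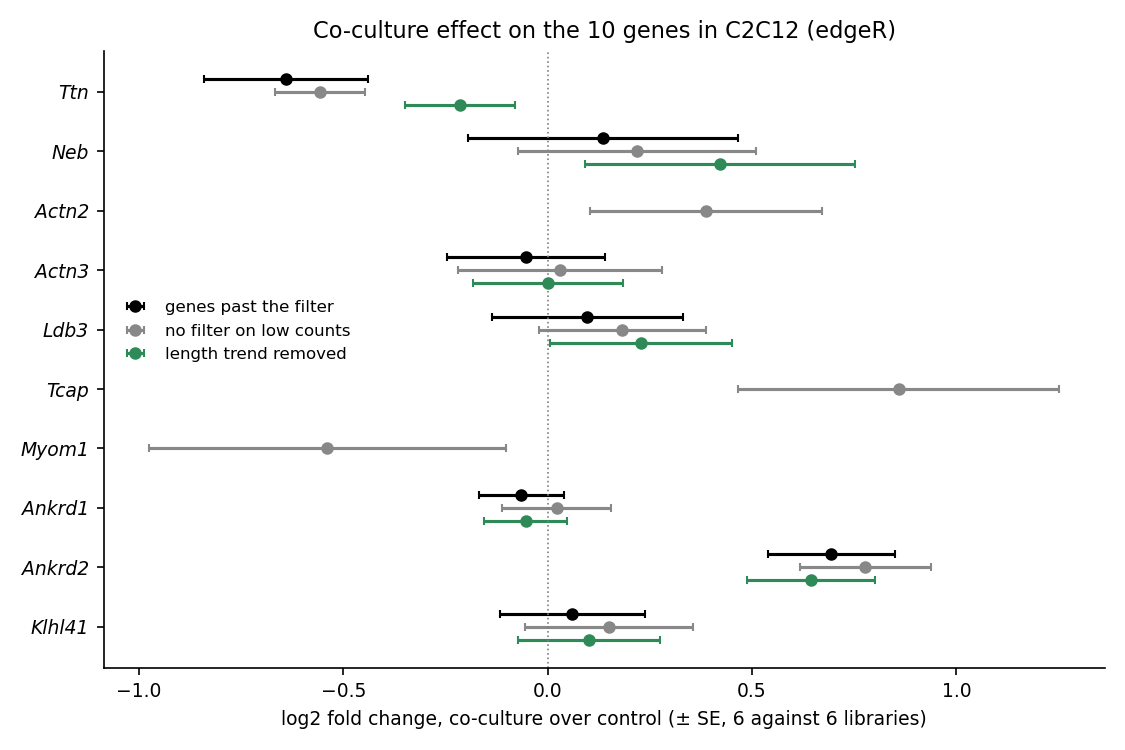
Log2 fold change, co-culture over control (x axis, ± SE, 6 against 6 libraries), from edgeR for the 10 genes (rows): genes past the filter in black, with no filter in grey, and with the length trend removed in green. Ankrd2 is above 0 in all of its fits, at 0.69, 0.78 and 0.64, while Ttn is at -0.64, -0.56 and -0.21.

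Shares within pairs of genes were compared because a ratio inside a library needs no scaling for depth. Such a ratio does not remove a trend with transcript length. Mean lengths were 0.948 kb for Tcap, 16.1 kb for nebulin and 56.7 kb for titin, and whether length had a part in their shares was not tested. The shares reuse the reads of the gene fits, so the Ankrd1 share is not separate evidence for the Ankrd2 difference. Ankrd1 made 50.5 to 69.3% of the reads of Ankrd1 and Ankrd2 with a median of 57.9% in co-culture, and 67.8 to 74.1% with a median of 68.5% in control. In 5 of 6 co-cultured libraries the share was below the lowest control, and the means were 58.4 ± 7.14% in co-culture and 69.5 ± 2.43% in control. At -11.2 percentage points, the difference gave a two-sided p of 0.0108 in an exact permutation test over 924 splits, and 0.0433 after Benjamini-Hochberg adjustment over 4 shares (0.0541 if the titin share added later is counted as well). In exact tests without 1 library the adjusted p ran from 0.0173 to 0.0866 and was under the threshold for 2 of 12, with differences of -13.3 to -9.58 points, those without co-culture 4 or 6.

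Actn3 made 54.8 ± 9.51% of Actn2 and Actn3 reads in co-culture and 63.9 ± 6.42% in control (exact permutation p = 0.0844, adjusted 0.113), which did not pass. Of the co-cultured libraries 5 of 6 were below the control median, and whether reads of Actn2 and Actn3 were mixed in counting was not tested. The difference was -9.10 points, and -4.76 points over protein_coding transcripts only (exact permutation test, adjusted p = 0.526). Some shares rest on few reads, with 3 of Actn2 and 7 of Actn3 in control 1. Tcap made 3.83 ± 2.44% of the reads of Tcap and titin in co-culture and 1.41 ± 0.539% in control, higher than the control median in 5 of 6 libraries (exact permutation p = 0.0390, adjusted 0.0779). Without co-culture 4, which had no Tcap read, the difference was 3.19 points with an adjusted p of 0.0173 in the exact test, and without co-culture 3 it was 1.70 points (adjusted 0.104). Over the 12 exact tests without 1 library the adjusted p ran from 0.0173 to 0.147 and passed in 1. Titin made 94.9 ± 2.81% of the reads of titin and nebulin in co-culture and 96.9 ± 0.474% in control (exact permutation p = 0.119, adjusted 0.119).

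**Figure D5:**
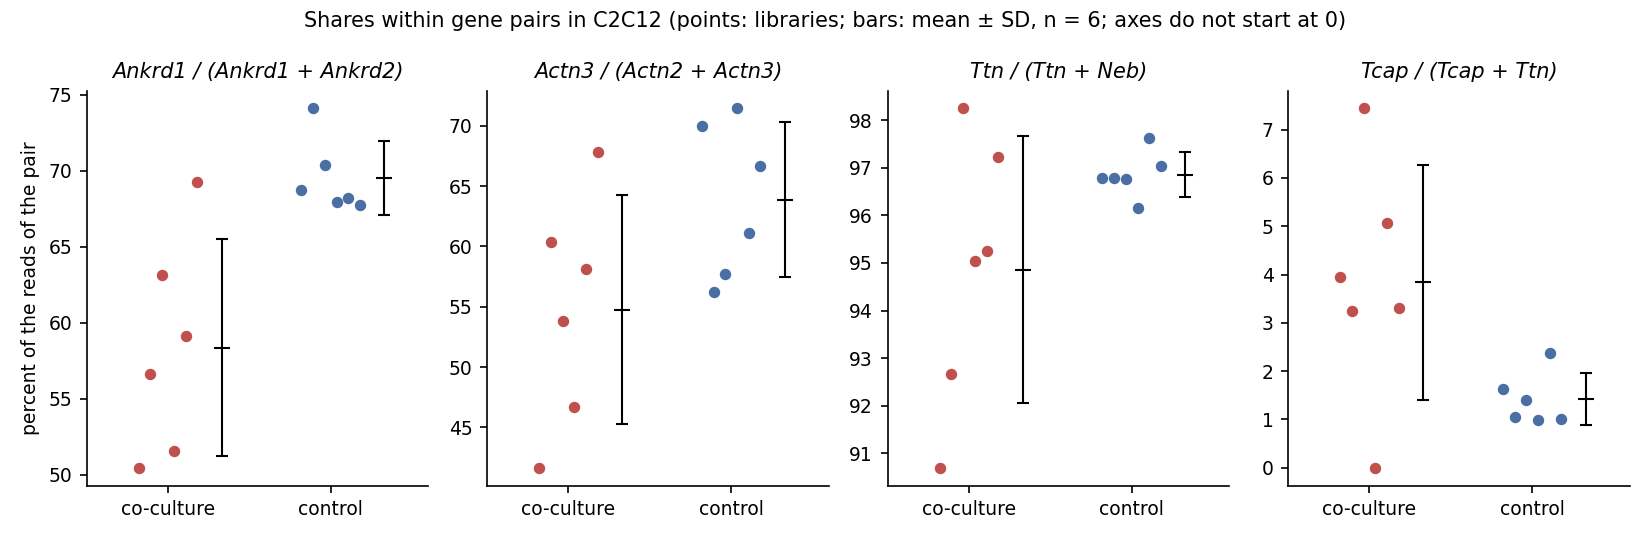
Share of a gene in the reads of a pair (y axis, percent, axes not starting at 0) in 6 co-cultured (red, left) and 6 control (blue, right) C2C12 libraries, with bars for the mean ± SD. The Ankrd1 share averaged 58.4% in co-culture and 69.5% in control, with 5 of 6 co-cultured libraries below every control.

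As a group, the 10 genes made 1587 to 2041 CPM with a median of 1806 in co-culture, and 1614 to 2898 CPM with a median of 2031 in control. Without titin the other 9 made 966 to 1124 CPM with a median of 1031 in co-culture, and 842 to 1038 CPM with a median of 924 in control. Titin was 35.0 to 49.5% of the members' reads in co-culture and 39.5 to 64.2% in control. In CPM that are not divided by length, titin led the means in co-culture, at 760 CPM, before Ankrd1 at 365 and Ankrd2 at 261. Another order is given per kilobase of annotated transcript. The division takes reads as proportional to length, which was not tested for these Nanopore reads, so neither order is taken as that of the molecules. On that scale Ankrd2 led in co-culture, at 230 ± 43.9 CPM per kb, and Ankrd1 followed at 181 ± 21.5. In control Ankrd1 was ahead, at 189 ± 17.2 CPM per kb, and Ankrd2 followed at 148 ± 22.8. The middle of the order in co-culture was Klhl41 (41.7 CPM per kb), Tcap (31.0), Ldb3 (26.9), Actn3 (21.2), Actn2 (16.8) and titin (13.4), with SDs of 6.46, 22.4, 4.42, 3.83, 5.61 and 2.71. The Tcap SD covers all 6 of these, Ldb3 and Actn3 differed by more than either SD, and Actn3 and Actn2, and Actn2 and titin, by less than the Actn2 SD. Myom1 (3.22) and nebulin (2.51) were lowest in co-culture, and in control, at 5.03 and 2.36 CPM per kb, they were lowest too.

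By the distance of their profiles over the 12 libraries (root mean square difference of centred log2 CPM), the tested gene nearest to Ankrd2 was Ckm, the muscle creatine kinase, at 0.18, against a median of 0.50 to all tested genes. Nearest to Ankrd1 was Rpl7a, a ribosomal protein gene, at 0.11 against 0.35, and nearest to titin was Olfr1033, annotated as an olfactory receptor gene, at 0.21 against 0.59. These distances describe the same libraries as the fits and carry no test.

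Genes that work beside the 10 were taken from lists by role. Beside the counts at an unadjusted p under 0.05 in these lists, the edgeR share over all tested genes was 14.7% in either direction and 8.83% lower. Of 29 Z-disc partners 28 had reads and 19 were tested, with 0 higher, 0 lower (2 higher and 1 lower at an unadjusted p under 0.05) and a median log2 fold change of 0.07. The smallest p among them was that of desmin (Des), the intermediate filament that ties Z-discs together, at 1072 ± 192 CPM in co-culture and 805 ± 163 CPM in control (log2 fold change 0.41 ± 0.127, edgeR adjusted p = 0.0952). Smpx, a small protein of striated muscle, had 0.37 (adjusted p = 0.145) and Csrp2, a LIM protein that binds alpha-actinin, had -0.36 (adjusted p = 0.269), both in edgeR.

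Of 15 M-band and titin-bound genes 5 were tested, with 1 higher, 0 lower and a median of 0.19. The one that rose was Ckm, which is bound at the M-band, with 508 ± 49.8 CPM in co-culture and 331 ± 39.1 CPM in control (log2 fold change 0.64 ± 0.102, edgeR adjusted p = 0.00268). Every co-cultured library, at 444 to 587 CPM, lay above every control library, at 278 to 396 CPM. The groups of libraries did not overlap for 1.52% of all tested genes, in either direction. The autophagy receptor Sqstm1, of the titin kinase complex, had 0.19 (edgeR adjusted p = 0.689), and the second myomesin, Myom2, had -0.17 (0.759).

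Of 11 genes of thin filament ends and the nebulin family 4 were tested, with 0 higher, 0 lower (1 lower at an unadjusted p under 0.05) and a median of -0.21. Lmod2 and Lmod3, leiomodins that nucleate and lengthen actin filaments at the pointed end, had log2 fold changes of -0.50 (edgeR adjusted p = 0.325) and -0.32 (0.498), and Capza2, a subunit of the barbed-end capping protein, had -0.06 (0.941). Of 10 genes of sarcomere assembly 5 were tested, with 0 higher, 0 lower (1 in each direction at an unadjusted p under 0.05) and a median of -0.15. In the 4 lists of partners, regulators and targets with no call in edgeR, that of YAP and TAZ included, DESeq2 and limma-voom called 0 genes as well. The myosin chaperone Unc45b stood at 244 ± 49.96 CPM in co-culture and 166 ± 36.5 CPM in control (0.53 ± 0.160 on the log2 scale, edgeR adjusted p = 0.0914), its partner chaperone Hsp90aa1 had -0.36 (0.146), and Klhl30, a relative of Klhl41, had 0.42 (0.498).

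NSC34 was read far less deeply, with 88 to 30314 reads per library. None of the 10 genes had a read among 55007 in co-culture or 15858 in control. A gene at 0 may still have made up to 54.5 CPM in co-cultured NSC34 and 189 CPM in control NSC34 (3 reads of the total). At the pooled level of co-cultured C2C12, titin, at 736 CPM with an exact Clopper-Pearson 95% interval of 697 to 776, would have given 40.5 reads in co-cultured NSC34, Ankrd1 19.7 and Ankrd2 14.4. Their limits in co-culture were 7.42, 15.2 and 20.9% of the C2C12 level. For nebulin, Actn2, Tcap and Myom1 the co-culture limit was above the C2C12 level. At that level 2.49, 2.73, 1.58 and 0.76 reads were due in co-cultured NSC34, so 0 reads do not exclude a level as in C2C12. In control the limits of titin and Ankrd1 were 14.9 and 49.9% of the C2C12 level, that of Ankrd2 was 122%, and 8 of the 10 genes, all but titin and Ankrd1, had a limit above that level. Leaving out the deepest library, co-culture 2, raised the co-culture limit to 121 CPM over 24693 reads. The limits of titin, Ankrd1 and Ankrd2 were then 16.5, 33.9 and 46.5%, and those of the other 7 genes were above the C2C12 level. Of the 13 muscle markers 4 had reads in NSC34, 20 in co-culture and 5 in control, while neuron markers had 56 in co-culture and 18 in control.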

How the data were processed

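RNA came from Trizol extracts of C2C12 and NSC34 cells and was read on a MinION, a Nanopore sequencer, per the labels. The values the authors deposited are raw counts of reads per Ensembl transcript, as whole numbers in a table for each line, with no scaling. The build is GRCm38, per the submitters' processing notes; of the aligner, the counting program and its strand setting, nothing is stated in the labels. Transcript identifiers without versions were looked up in GENCODE M21, which held 37415 of 37677 C2C12 and 10374 of 10427 NSC34 transcripts, and counts were summed per gene. Most deposited versions were 1 higher than in that release (37048 and 10267), so the deposited annotation was a later one.

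C2C12 genes were tested with edgeR 4.0.16 in R 4.3.3 (filterByExpr, TMM, quasi-likelihood F test, no covariate) and Benjamini-Hochberg adjustment at 0.05. The filter left 2570 genes with 88.3% of the reads. Values for Actn2, Tcap and Myom1, under the filter, come from the fit with no filter on 15439 genes. CPM are counts per 1e6 of all reads, and lengths are annotated transcript lengths weighted by reads. Shares were compared with exact two-sided permutation tests over 924 splits (smallest p 0.00216) in SciPy 1.17.1, and transcripts with BLAST+ 2.17.0. On simulated data of 2462 genes at the C2C12 depth the edgeR fit found 33 of 66 genes with a simulated 1.5-fold change, 60 of 65 at 2-fold and 66 of 66 at 4-fold, beside 13 of 2265 genes left as they were.

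Depth was 121154 to 658075 reads per C2C12 library and 88 to 30314 per NSC34 library. The exact Clopper-Pearson interval and the limits for genes without a read cover counting error only. Intervals of fold changes come from the edgeR fit and also include the spread between libraries. No pair of same-group C2C12 libraries looked like 1 library under 2 names (chi-square per degree of freedom 1.37 to 3.29). NSC34 members were only counted. The genes named are the 10 members, transcripts with at least 10% of a member's reads, the genes that passed and the 3 of smallest p per list, and the nearest gene for 3 members. The members and lists were chosen with earlier results of these data known. Alternatives were DESeq2 1.42.0, limma 3.58.1 voom with quality weights, RLE factors, scaling by library totals, a filter at a mean count of 10, no filter, the replicate number as a block, a length trend removed (loess, span 0.5), libraries under 130000 reads left out, protein_coding transcripts only, and each library left out in turn; titin classes by position were added after seeing the data. One marker list that holds a withheld item is not reported here.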

Additional observations from a re-analysis of the deposited data

How the results depend on the processing

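Ankrd2 kept its direction under all 10 other settings and all 12 refits without 1 library, and it passed in 8 of the 10; the adjusted p was 0.0513 with limma-voom and 0.0504 with libraries under 130000 reads left out, and the cause was not tested. The number of C2C12 genes past the threshold, 37 in the edgeR fit, was 58 with library totals, 106 with no filter, 10 with shallow libraries left out and 11 to 74 without 1 library (11 without control 3, 12 without co-culture 2, 18 without control 1, 19, 22 and 24 without co-cultures 5, 1 and 3, 73 without control 6 and 74 without control 5). Members past it, 1 in the edgeR fit, were 0 with limma-voom, 2 with no filter, 0 with shallow libraries left out and 0 to 2 without 1 library. Transcripts past it, 10, were 34 with DESeq2, 31 with limma-voom, 126 with no filter, 1 with the replicate block, 2 with shallow libraries left out and 5 to 15 without 1 library. Signs near 0 turned: Actn3 to 0.031 with no filter, 0.00096 with the length trend removed, 0.0015 with shallow libraries left out and 0.084 over protein_coding transcripts (-0.12 to 0.0080 without 1 library); Ankrd1 to 0.022 with no filter; Ldb3 to -0.11 with shallow libraries left out (-0.041 to 0.23 without 1); Neb to -0.059 and Klhl41 to -0.059 in refits without 1 library, with ranges up to 0.29 and 0.14. The titin 3' share differed by 2.56 points with shallow libraries left out and by -3.85 to 1.85 without 1. The Ankrd1 share difference was -11.8 points (adjusted p 0.114) with shallow libraries left out and ran from -13.3 to -9.58 without 1 library; the Tcap share difference ran from 1.70 to 3.19. Replicate numbers did not pair the libraries: same-number correlations of deviations were -0.05 to 0.10, and 1 of 6 libraries matched its own number best. With the number as a replicate block 26 genes passed, 1 of them a member, Ankrd2 had an adjusted p of 0.0463, and the Ankrd1 share, at -11.2 points, had an adjusted p of 0.125. Depth limits Tcap, Myom1 and Actn2, and NSC34 throughout.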
